A study of Mus musculus with 25 samples.

Results

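Hepatoblastomas (HBs) were compared here with normal livers of mice fed dodecanedioic acid (DDDA), across all genes of the count table. The members were all libraries whose labels give the groups DDDA-Tumor (5 HBs: DT2264, DT2270, DT2277, DT3167 and DT3168) and DDDA-Liver (5 livers: DL01 to DL05), 10 of the 25 samples of the series. Both groups were FVB mice on a diet with 10% DDDA, a dicarboxylic fatty acid broken down in peroxisomes, for 3 to 4 weeks per the labels. The HBs had been induced by delivering Sleeping Beauty vectors to hepatocytes through the tail vein under pressure (hydrodynamic injection), which encoded the patient-derived β-catenin deletion mutant Δ(90) and the nuclear YAP mutant YAP S127A. Per the paper, the RNA of the HBs was taken from parts of the tumors that looked healthy, so values need not hold for whole tumors. The livers came from mice with no injection, not from tissue next to a tumor, so that vector delivery, tumor and mouse cannot be told apart. The livers were of 2 females and 3 males and the HBs of 4 females and 1 male (DT2270), and Xist and Ddx3y matched these labels in every library. Whole-number read counts summed to 18817404 to 23373175 per liver and to 18323912 to 29783324 per HB. On each flow cell the livers were read in lane L1 and the HBs in lane L2, so tissue and lane cannot be told apart. DL03 and DT3168 were read on another flow cell than the other 8. Litters and collection days were not analysed here, and p-values measure only the spread between these libraries. Levels are CPM, counts per 1000000 of the library size after TMM scaling, and single values stand in the order DL01, DL02, DL03, DL04, DL05 for livers and DT2264, DT2270, DT2277, DT3167, DT3168 for HBs. A gene was called where its adjusted p from edgeR's quasi-likelihood F-test was under 0.05, and such a gene is said to have risen or fallen in HBs. Errors are the SD over libraries (n = 5 per group) unless an SE is named.

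HB is the most frequent liver cancer of children and resembles hepatic precursor cells. Most HBs carry an activated β-catenin, the nuclear effector of Wnt signals, and in many the transcriptional co-activator YAP, the end point of the Hippo pathway, is nuclear as well. In the healthy lobule β-catenin activity sets the program of hepatocytes around the central vein, while hepatocytes around the portal vein run urea synthesis and gluconeogenesis. YAP works through TEAD factors on genes of the matrix and the cytoskeleton and, in hepatocytes, can turn on genes of the biliary lineage.

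Of 13415 genes tested, 6673 (49.7%) differed between HBs and livers. Of these, 3529 (26.3%) rose and 3144 (23.4%) fell. Counts of list members below are to be read beside these shares of all genes. With a change of at least 2-fold, 2104 genes rose (15.7% of the genes tested) and 1425 fell (10.6% of the genes tested), and the groups did not overlap for 5116 genes (38.1%). The median log2 fold change of all genes was 0.08. In bulk RNA fewer cells of a type and less RNA per cell cannot be told apart, which touches every gene group below. The balance of rises and falls depends on the scaling. TMM factors were 0.731 to 0.896 in livers and 1.16 to 1.41 in HBs, and with library size alone the median of all genes was 0.73, so that 7966 genes rose and 1152 fell. That setting shifted the genes by 0.65 at the median, and changes below are relative to the TMM scale. A few transcripts take up much of a liver library. The 10 genes most abundant over the 10 libraries held 15.3% to 18.1% of the counts in livers and 8.30% to 12.5% in HBs. A list of 28 plasma protein genes held 20.1% ± 1.89 in livers and 15.3% ± 2.08 in HBs (p = 0.00794 by a two-sided exact permutation test). With 5 against 5 libraries this test cannot give a lower value. The 10 most abundant genes reached the same p, but they were picked by their level in these same libraries. Their p is therefore not that of a set chosen beforehand, and no conclusion is drawn from it.

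Some calls on named genes rest on the setting. With library size alone Notum, Cyp2e1, Mxd4, Srebf1, Pfkm, Masp1, Met, Perp, Bid, B2m, Bst2, Iigp1, Ccl9, Col27a1, Col18a1, Reln, Stab2, Cd163 and Cry2, all of which fell, were not called lower. With sex as a covariate 2930 genes rose and 2682 fell, and Cyp2e1, Pfkl, Pkm, Idh3a, Pparg, Col27a1, Col18a1, Mgp, Col1a1, Col1a2, Acta2, Slc4a1, Cpt1c and Sgk1 were not called. Between the 4 female HBs and the 2 female livers alone 879 genes rose and 866 fell. Without DT2264, the HB with the most RNA of stromal cells, Pfkl, Pkm, Psat1, Col1a2 and Acta2 were not called, and 3518 genes rose and 3164 fell. Without DL03 and DT3168, the libraries of the smaller flow cell, 2860 genes rose and 2645 fell, and Alb, Pkm, Psat1, Idh3a, C2, Pparg, Gss, Ccl9, Col27a1, Col18a1, Col1a2, Reln, Acta2, Csf1r, Mpeg1, Cd163, Cpt1c and Arntl were not called.

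**Figure D1:**
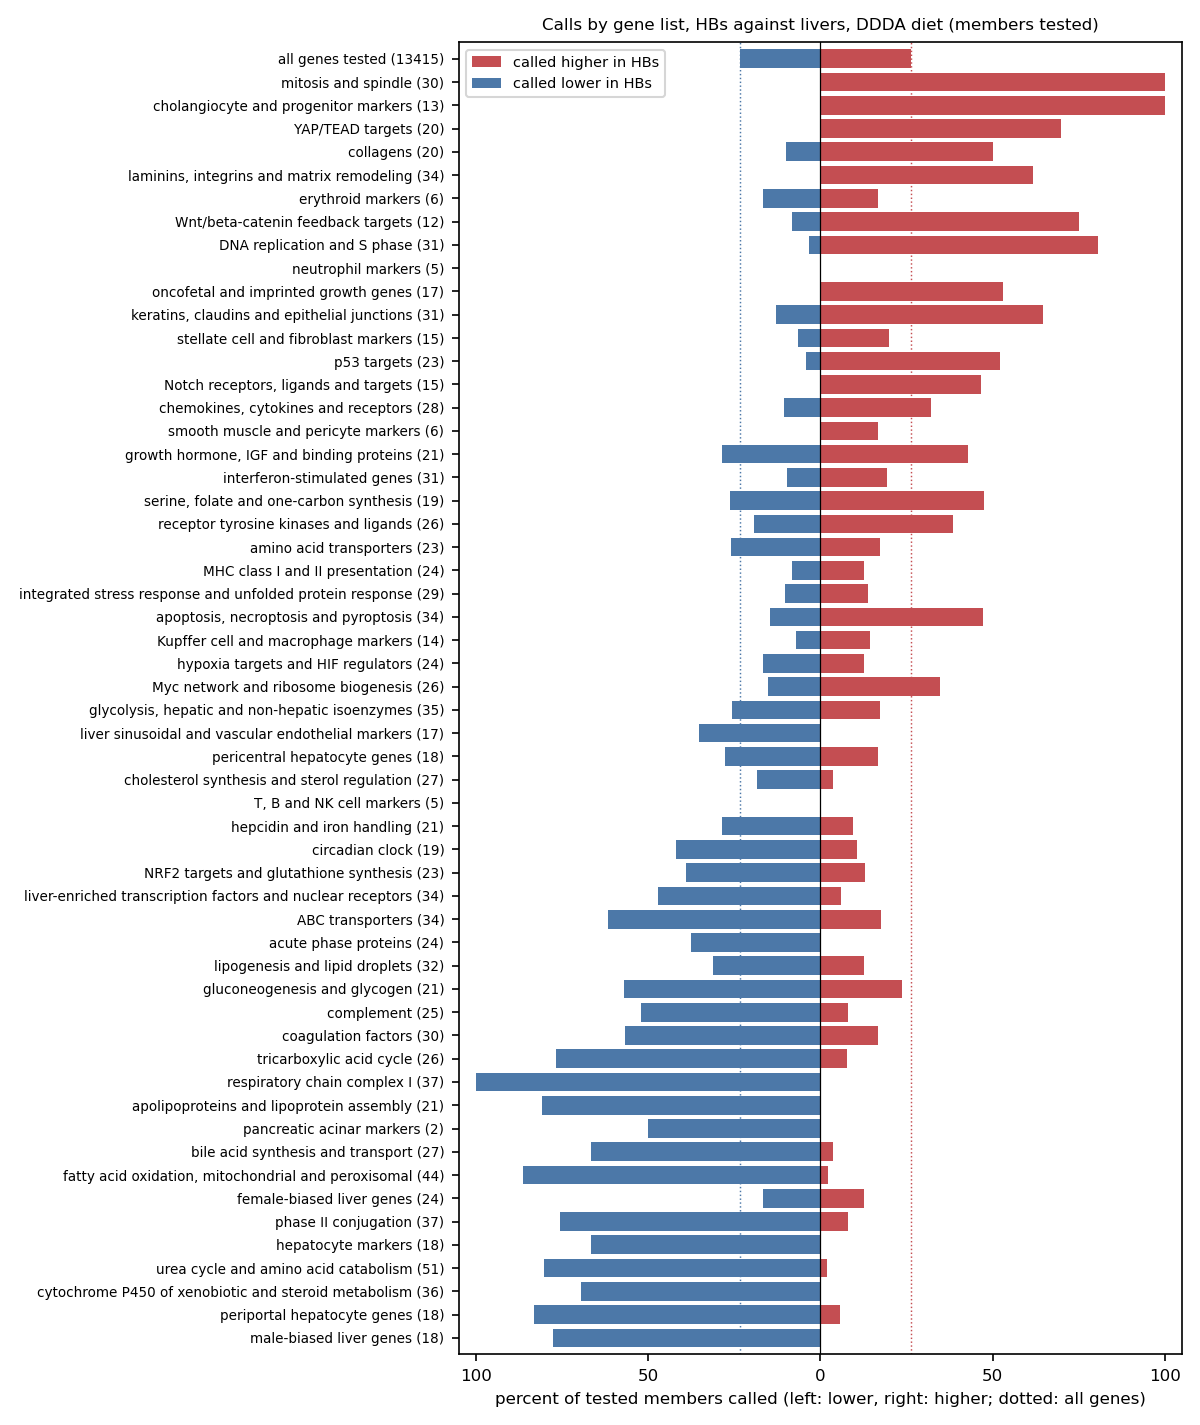
Percent of the tested members of 55 gene lists that rose (right) or fell (left) in HBs against livers on the DDDA diet, ordered by the median log2 fold change, with the number of members tested in parentheses. The dotted lines mark all genes tested (26.3% higher, 23.4% lower); all 30 mitosis genes rose and all 37 complex I genes fell.

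The genes delivered by the vectors came first. Ctnnb1, which encodes β-catenin, was at 322, 348, 324, 309 and 295 CPM in the livers and 1433, 1204, 812, 762 and 1112 CPM in the HBs (log2 fold change 1.74, SE 0.20, adjusted p = 9.8e-05). Yap1 was at 109.9, 85.8, 107, 93.9 and 111 CPM in the livers and 1427, 1173, 677, 916 and 1970 CPM in the HBs (log2 fold change 3.602, SE 0.29, adjusted p = 1.9e-05). Every HB lay above every liver for both genes, and the counts do not separate the vector copies from the endogenous genes. Axin2, the negative feedback regulator of β-catenin, was at 6.12, 11.3, 6.198, 7.62 and 7.07 CPM in the livers and 17.7, 54.1, 149, 124 and 58.6 CPM in the HBs (log2 fold change 3.396, SE 0.51, adjusted p = 4.4e-04). Its lowest HB was DT2264, which still lay above the highest liver.

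Of the Wnt/β-catenin feedback genes, 12 were tested, of which 9 rose, 1 fell and 2 did not pass (median log2 fold change 2.01, 0.08 for all genes). The receptor Tnfrsf19 rose from 5.98 ± 1.84 to 66.1 ± 37.2 CPM, the growth factor Bmp4 from 4.37 ± 1.57 to 19.5 ± 3.79 CPM and the transcription factor Tcf7 from 6.56 ± 1.19 to 16.3 ± 3.35 CPM. Notum, a secreted enzyme that inactivates Wnt proteins, fell from 46.7 ± 5.12 to 17.1 ± 12.2 CPM (log2 fold change -1.45, SE 0.45, adjusted p = 0.020). Genes of pericentral hepatocytes, which depend on β-catenin in the healthy liver, were called no more often than all genes (49.7%). Of 18 tested, 3 rose, 5 fell and 10 did not pass, where 26.3% of all genes rose and 23.4% fell. With library size alone 4 of them rose and 3 fell. Ahr, the receptor for dioxins, rose from 38.5 ± 6.76 to 146 ± 48.4 CPM, while the cytochromes Cyp1a2 and Cyp2e1 fell from 806 ± 311 to 104 ± 70.8 CPM and from 6327 ± 1217 to 1749 ± 1295 CPM and the retinal dehydrogenase Aldh1a1 from 2321 ± 562 to 856 ± 360.4 CPM. Glul, the glutamine synthetase that marks the last hepatocytes before the central vein, was at 837, 905, 739, 830.3 and 876 CPM in the livers and 292, 185, 1692, 680.2 and 947 CPM in the HBs (log2 fold change -0.14, SE 0.50, adjusted p = 0.83). All 5 HBs lay outside the range of the livers for Glul, with DT2264, DT2270 and DT3167 below and DT2277 and DT3168 above.

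Targets of YAP rose where they changed. Of 20 tested, 14 rose, none fell and 6 did not pass (median 2.49). Ankrd1, a nuclear ankyrin repeat protein and a classic YAP target, was at 0.143, 0.183, 0.348, 0.145 and 0.208 CPM in the livers and 156, 465, 169.7, 103 and 82.5 CPM in the HBs (log2 fold change 9.85, SE 0.67, adjusted p = 7.8e-06). Ptpn14, a phosphatase that binds YAP, was at 2.199, 1.77, 1.45, 1.16 and 1.66 CPM in the livers and 43.6, 29.2, 58.8, 63.3 and 46.2 CPM in the HBs (log2 fold change 4.86, SE 0.26, adjusted p = 1.9e-06). The groups lay far apart for both. Crim1, a membrane protein that binds BMPs, rose from 17.4 ± 1.77 to 86.3 ± 15.9 CPM and the membrane repair protein Myof from 4.15 ± 2.42 to 129 ± 45.8 CPM. The matricellular protein Cyr61 rose from 13.4 ± 4.42 to 101 ± 60.5 CPM (log2 fold change 2.92, SE 0.40, adjusted p = 2.3e-04). The bases before the start sites of Ankrd1 and Cyr61 are shown because they hold the core of the site that TEAD factors bind, the letters CATTCC or its reverse complement, in capitals. The windows (RefSeq, GRCm38.p6) are chr19:36119845-36120064, minus strand, and chr3:145649986-145650205, minus strand, each printed 5′ to 3′ on the strand of its gene and ending at the base before the start.
Ankrd1: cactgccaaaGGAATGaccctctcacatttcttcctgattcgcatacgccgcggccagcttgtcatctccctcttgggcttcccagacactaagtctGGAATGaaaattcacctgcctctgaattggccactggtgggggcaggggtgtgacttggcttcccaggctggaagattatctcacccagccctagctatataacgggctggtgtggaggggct
Cyr61: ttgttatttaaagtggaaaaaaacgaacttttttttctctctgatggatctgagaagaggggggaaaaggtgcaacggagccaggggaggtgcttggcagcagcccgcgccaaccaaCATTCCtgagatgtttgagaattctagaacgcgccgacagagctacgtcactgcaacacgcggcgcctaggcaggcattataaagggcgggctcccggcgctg
Ankrd1 held 2 matches and Cyr61 held 1. In the 250 bases before the start, searched on both strands, 7 of the 17 list members with a RefSeq promoter held CATTCC (41.2%), against 12.6% of all 27025 promoters. A match is a description of these letters only.

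**Figure D2:**
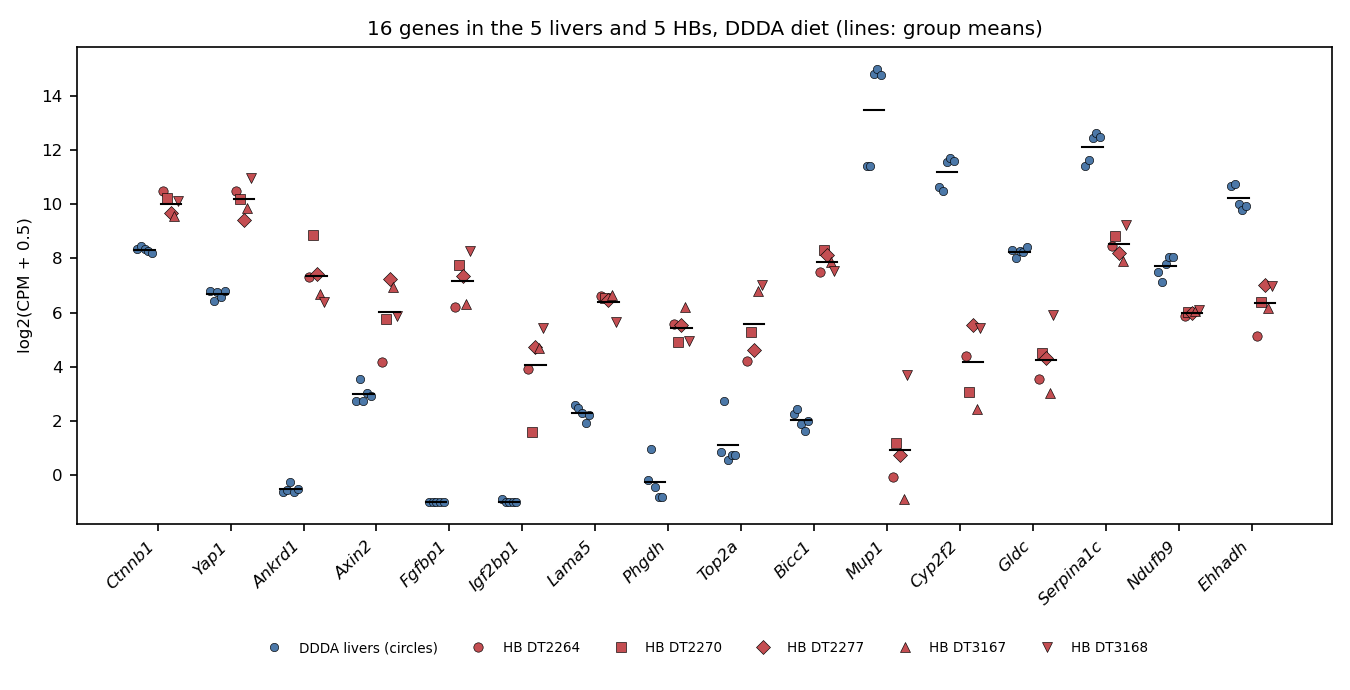
Level of 16 genes as log2(CPM + 0.5) in each of the 5 livers (blue circles) and the 5 HBs (red, one symbol per HB), with lines at the group means. For every gene drawn the HBs and livers lie apart; Axin2, Igf2bp1 and Mup1 spread widely over the HBs and Ndufb9 hardly at all (57.5 to 66.9 CPM).

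The largest rises were of genes close to silent in liver. Fgfbp1, a secreted carrier that releases fibroblast growth factors from the matrix, had no count in any liver and was at 73.2, 213, 164, 79.9 and 307 CPM in the HBs, at least 4940-fold higher against a floor of 3 counts over the livers. Psca, a surface antigen of prostate and bladder epithelium, had no count in livers either and was at 14.4, 27.9, 135, 21.9 and 32.3 CPM in HBs, at least 1280-fold higher, a bound that goes to 687-fold without DT2277. Both were present in every HB, and their livers were at the floor throughout. Folh1, the folate hydrolase known as prostate-specific membrane antigen, was at 5.59, 10.5, 7.31, 8.87 and 16.3 CPM in HBs and 0 in livers (at least 282-fold). The potassium channel gene Kcnh7, at 1.12 to 15.7 CPM in HBs, and Frmpd1, at 1.78 to 12.7 CPM, likewise had no count in livers (at least 249-fold and 201-fold). Gm35546, a gene of no given function, was at 4.02 to 17.8 CPM in HBs (at least 250-fold). Cdh17, the liver-intestine cadherin, was at 44.999, 2.36, 0.6504, 2.798 and 1.82 CPM, so that DT2264 carried most of its mean. Elfn2 rose from 0.0422 ± 0.0623 to 57.8 ± 83.1 CPM, with 206 CPM in DT3167 and 7.17 to 30.9 CPM in the other HBs, and Fam83b, an adaptor of growth factor signaling, from 0.0145 ± 0.0325 to 21.4 ± 15.1 CPM. In all, 46 genes rose with 3 counts or fewer over the 5 livers, 21 of them at 5 CPM or more in HBs. Fitted fold changes of such genes depend on the prior count.

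Fetal liver genes were among the largest rises too, and here the HBs differed among themselves. Of 17 oncofetal and imprinted growth genes tested, 9 rose, none fell and 8 did not pass (median 1.57). Igf2bp1, an RNA-binding protein of embryonic tissue that stabilizes growth-related mRNAs, was at 0.0478, 0, 0, 0 and 0 CPM in the livers and 14.6, 2.54, 26.2, 25.2 and 42.3 CPM in the HBs (log2 fold change 10.29, SE 1.02, adjusted p = 4.7e-05). H19, the imprinted noncoding RNA next to Igf2, was at 0.0956, 0.612, 0.174, 0.218 and 0 CPM in the livers and 38.4, 155, 996, 27.3 and 143 CPM in the HBs (log2 fold change 10.24, SE 1.39, adjusted p = 2.4e-04). Its level in DT2277 was several times that of any other HB. Gpc3, a cell surface proteoglycan used as a marker of HB, varied less, at 1.004, 2.08, 1.39, 0.871 and 1.66 CPM in the livers and 75.3, 108, 121, 50.9 and 251 CPM in the HBs (log2 fold change 6.43, SE 0.50, adjusted p = 1.6e-05). Afp, the fetal counterpart of albumin, and Igf2, the fetal growth factor, were named after their values were seen because DT2277 stood apart in both. Afp was at 4.03, 24.3, 484, 4.48 and 8.04 CPM and Igf2 at 8.57, 69.2, 978, 11.1 and 24.4 CPM in the HBs, against at most 0.762 and 1.52 CPM in livers. Bex1, a small adaptor of neural and fetal tissue, rose from 0.132 ± 0.0934 to 36.2 ± 21.5 CPM.

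Genes of cell division rose throughout. All 30 mitosis and spindle genes tested rose, with a median log2 fold change of 4.27 and no overlap between groups for 29 of them, where 38.1% of all genes tested did not overlap in either direction. Prc1, which bundles the microtubules of the central spindle, was at 0.526, 2.997, 0.405, 0.508 and 0.762 CPM in the livers and 12.3, 28.3, 10.4, 57.5 and 75.6 CPM in the HBs (log2 fold change 5.14, SE 0.79, adjusted p = 5.0e-04). Top2a, the topoisomerase that untangles sister chromatids, was at 1.29, 6.24, 0.985, 1.16 and 1.18 CPM in the livers and 17.8, 38.3, 23.9, 109.8 and 128 CPM in the HBs (log2 fold change 4.87, SE 0.79, adjusted p = 6.5e-04). In both genes DT3167 and DT3168 were high and DT2264 and DT2277 low among HBs, and DL02 was the highest liver. Foxm1, the transcription factor of G2 genes, rose from 0.946 ± 0.564 to 17.8 ± 13.9 CPM and Birc5, the survivin of the chromosomal passenger complex, from 1.35 ± 0.677 to 15.97 ± 11.6 CPM. The list held 0.00347% ± 0.0021 of the counts in livers and 0.0786% ± 0.061 in HBs. Between the 4 female HBs and 2 female livers none of the 30 passed, with a median of 3.8 on the log2 scale.

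The promoters of Ccnb2, Cdc20, Cdk1 and Top2a are shown because cell cycle genes of this kind are known to hold CCAAT boxes, bound by NF-Y, together with a CHR element, the letters TTTGAA, through which the DREAM and MuvB complexes act. Capitals mark CCAAT and TTTGAA on either strand, and the 2 motifs do not share bases. The windows are chr9:70421555-70421774, minus strand for Ccnb2, chr4:118437344-118437563, minus strand for Cdc20, chr10:69352913-69353132, minus strand for Cdk1 and chr11:99024190-99024409, minus strand for Top2a (RefSeq, GRCm38.p6).
Ccnb2: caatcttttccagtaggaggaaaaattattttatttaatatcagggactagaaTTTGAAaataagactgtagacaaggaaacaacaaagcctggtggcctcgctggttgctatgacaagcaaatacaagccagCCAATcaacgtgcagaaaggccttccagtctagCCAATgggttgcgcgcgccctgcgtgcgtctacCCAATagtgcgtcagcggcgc
Cdc20: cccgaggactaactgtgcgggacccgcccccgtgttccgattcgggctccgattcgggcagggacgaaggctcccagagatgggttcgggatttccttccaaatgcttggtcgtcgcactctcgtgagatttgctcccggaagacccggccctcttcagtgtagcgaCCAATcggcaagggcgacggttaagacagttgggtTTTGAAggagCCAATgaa
Cdk1: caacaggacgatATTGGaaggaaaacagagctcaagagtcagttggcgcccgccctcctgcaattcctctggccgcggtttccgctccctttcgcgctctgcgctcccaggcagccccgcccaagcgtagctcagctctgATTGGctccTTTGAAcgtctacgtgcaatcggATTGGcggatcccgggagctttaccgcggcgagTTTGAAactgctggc
Top2a: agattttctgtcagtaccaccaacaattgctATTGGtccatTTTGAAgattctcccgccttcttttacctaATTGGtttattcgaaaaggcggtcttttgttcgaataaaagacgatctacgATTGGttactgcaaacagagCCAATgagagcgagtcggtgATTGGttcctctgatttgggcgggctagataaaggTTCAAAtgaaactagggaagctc
Top2a held 5 CCAAT matches, Ccnb2 and Cdk1 held 3 each and Cdc20 held 2. Of the 25 mitosis genes with a RefSeq promoter, 20 (80.0%) held CCAAT in the 250 bases before the start, against 34.5% of all promoters, and 8 (32.0%) held TTTGAA, against 16.3%. The cyclin gene Ccnb2 rose from 0.906 ± 0.731 to 17.9 ± 15.02 CPM, the anaphase activator Cdc20 from 1.73 ± 1.201 to 32.3 ± 25.6 CPM and the kinase Cdk1 from 2.29 ± 1.26 to 27.1 ± 20.5 CPM.

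DNA replication genes followed with smaller changes. Of 31 tested, 25 rose, 1 fell and 5 did not pass (median 1.75). The ligase Lig1 rose from 4.94 ± 1.41 to 47.3 ± 19.1 CPM, the methylation maintenance factor Uhrf1 from 1.79 ± 1.58 to 29.9 ± 16.2 CPM, the ribonucleotide reductase subunit Rrm1 from 12.8 ± 2.72 to 43.3 ± 16.97 CPM and the helicase subunit Mcm7 from 16.8 ± 3.38 to 52.1 ± 20.2 CPM. Mcm10, a DNA replication factor, went the other way, with the female livers DL01 and DL02 below the male livers. It was at 33.5, 21.9, 98.8, 92.2 and 103 CPM in the livers and 3.802, 4.44, 5.93, 12.9 and 11.2 CPM in the HBs (log2 fold change -3.19, SE 0.53, adjusted p = 7.5e-04), and every HB lay below every liver. Of the Myc network and ribosome biogenesis genes, 26 were tested, of which 9 rose, 4 fell and 13 did not pass, and with library size alone 20 rose and 1 fell. The nucleolar proteins Npm1, Bop1 and Nop58 rose, with log2 fold changes of 1.07, 0.68 and 1.42. Mxd4, an antagonist of Myc, and Mlxipl, the carbohydrate-responsive factor ChREBP, fell, with -0.68 and -1.54.

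Biliary and other epithelial genes rose. All 13 cholangiocyte and progenitor markers tested rose (median 3.76), with 9 of them higher in every HB than in any liver, as were 2555 of all 13415 genes tested. In either direction 38.1% of all genes did not overlap. Bicc1, an RNA-binding protein of bile ducts and kidney tubules, was at 4.302, 4.89, 3.24, 2.61 and 3.53 CPM in the livers and 182, 314, 281, 229.6 and 186 CPM in the HBs (log2 fold change 5.999, SE 0.25, adjusted p = 5.0e-07). Epcam, an adhesion molecule of ducts and hepatic progenitors, was at 2.01, 1.41, 1.27, 0.581 and 1.45 CPM in the livers and 36.9, 21.1, 69.4, 36.3 and 9.12 CPM in the HBs (log2 fold change 4.66, SE 0.55, adjusted p = 1.1e-04), with DT3168 the lowest HB. Cldn7, a tight junction protein of ducts, rose from 0.256 ± 0.147 to 25.8 ± 15.1 CPM. Of the keratins, claudins and junction genes, 31 were tested, of which 20 rose, 4 fell and 7 did not pass. The tight junction scaffold Cgn rose from 29.6 ± 3.15 to 87.2 ± 10.3 CPM and the desmosomal Pkp3 from 2.13 ± 1.01 to 21.4 ± 8.87 CPM. Cldn14 and the hepatocyte gap junction gene Gjb1 fell from 19.3 ± 2.502 to 6.55 ± 2.71 CPM and from 1008 ± 88.6 to 369 ± 126 CPM. Of the Notch genes, 15 were tested, of which 7 rose, none fell and 8 did not pass. Among them the ligand Jag1 rose from 4.87 ± 1.59 to 49.6 ± 30.3 CPM, the ligand Jag2 from 0.163 ± 0.1601 to 3.502 ± 2.36 CPM, the receptor Notch1 from 31.9 ± 7.23 to 61.4 ± 12.1 CPM and the target Hes1 from 14.2 ± 4.305 to 35.97 ± 14.7 CPM. Summed over the cholangiocyte list, the livers held 53.9 to 97.0 CPM, DT2264 held 1890 CPM and the other HBs 428 to 918 CPM.

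Genes of laminins, the integrins that bind them and matrix remodeling rose where they changed. Of 34 tested, 21 rose, none fell and 13 did not pass (median 2.22). Lama5, a laminin chain of mature basement membranes, was at 5.45, 5.02, 4.402, 3.34 and 4.16 CPM in the livers and 96.2, 92.8, 88.1, 98.97 and 49.8 CPM in the HBs (log2 fold change 4.24, SE 0.22, adjusted p = 1.7e-06). Lamb2, another chain, was at 7.17, 5.57, 5.45, 6.97 and 7.69 CPM in the livers and 94.1, 40.1, 107, 149.5 and 132 CPM in the HBs (log2 fold change 3.99, SE 0.33, adjusted p = 1.9e-05). Neither gene overlapped between groups or rested on 1 HB. Itgb4, the integrin of hemidesmosomes, rose from 1.14 ± 0.608 to 48.6 ± 25.5 CPM. Of the collagens, 20 were tested, of which 10 rose, 2 fell and 8 did not pass, and with library size alone 15 rose and none fell. The basement membrane chains Col4a3 and Col4a5 rose from 0.147 ± 0.0345 to 10.2 ± 5.37 CPM and from 2.96 ± 0.679 to 47.6 ± 24.4 CPM with no overlap. Fibrillar and associated collagens leaned on DT2264. Col16a1 was at 79.2, 4.995, 17.3, 22.99 and 12.95 CPM in the HBs and Col12a1 at 121, 13.6, 8.03, 7.45 and 10.5 CPM, against at most 4.71 CPM in livers. Col27a1 and Col18a1 fell from 29.5 ± 17.1 to 7.35 ± 5.32 CPM and from 1527 ± 124 to 939 ± 279.6 CPM. Without DT2264 and DT2277, a setting chosen after seeing the data, 17 rose and 3 fell among the laminin list and 4 rose and 5 fell among the collagens.

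Hepatocyte markers fell where they changed. Of 18 tested, none rose, 12 fell and 6 did not pass (median -1.83), and with library size alone 1 rose and 11 fell. Serpina1c, an antitrypsin gene, was at 2722, 3196, 5478, 6298 and 5689 CPM in the livers and 348, 451, 296, 238 and 593 CPM in the HBs (log2 fold change -3.602, SE 0.37, adjusted p = 5.5e-05). Alb, which encodes albumin, was at 70161, 46966, 85735, 91998 and 84849 CPM in the livers and 14768, 19410, 34095, 12928 and 27366 CPM in the HBs (log2 fold change -1.81, SE 0.49, adjusted p = 0.011). All HBs lay below all livers in both, although Alb still took 2.70% ± 1.07 of all counts in HBs (6.02% ± 1.22 in livers). Ttr, the plasma carrier of thyroid hormone, fell from 6136 ± 1737 to 689 ± 357 CPM and Serpina1a from 5161 ± 1676 to 581 ± 170.2 CPM. Serpina1a and Serpina1c belong to a family of near-identical copies, so that reads may be split between them. Apoc3, an inhibitor of lipoprotein clearance, fell from 2112 ± 251 to 447 ± 156 CPM. The promoters of Alb and Serpina1c are shown because both hold a site of the type bound by HNF1 factors. Capitals mark the core letters GTTAAT on either strand. The windows are chr5:90460650-90460869, plus strand, and chr12:103904951-103905170, minus strand (RefSeq, GRCm38.p6).
Alb: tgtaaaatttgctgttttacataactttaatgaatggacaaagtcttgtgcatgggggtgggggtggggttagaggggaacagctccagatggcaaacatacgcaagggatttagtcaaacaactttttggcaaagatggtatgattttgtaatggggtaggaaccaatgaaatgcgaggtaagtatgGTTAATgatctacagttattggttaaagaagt
Serpina1c: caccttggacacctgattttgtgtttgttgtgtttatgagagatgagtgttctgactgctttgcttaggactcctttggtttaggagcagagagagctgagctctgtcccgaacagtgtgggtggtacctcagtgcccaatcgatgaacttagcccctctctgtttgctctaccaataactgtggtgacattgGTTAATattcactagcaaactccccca
Each held 1 match. Of the 12 hepatocyte markers with a RefSeq promoter 3 held GTTAAT (Alb, Serpina1a and Serpina1c), against 6.52% of all promoters. As near-identical copies, Serpina1a and Serpina1c need not count as separate genes here.

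Of the transcription factors and nuclear receptors enriched in liver, 34 were tested, of which 2 rose, 16 fell and 16 did not pass. With library size alone 9 rose and 10 fell, so that the direction of this group depends on the scaling. Cebpa, a factor of mature hepatocytes, fell from 982 ± 195 to 278 ± 51.3 CPM (log2 fold change -1.82, SE 0.20, adjusted p = 8.2e-05). Creb3l3, a membrane-bound factor of fasting, fell from 375 ± 63.9 to 144 ± 20.4 CPM and Nr1h4, the bile acid receptor FXR, from 121 ± 16.1 to 49.6 ± 10.6 CPM. Pparg, the adipogenic receptor, rose, at 12.1 ± 5.41 CPM in livers and 23.4 ± 6.55 CPM in HBs.

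Genes of plasma proteins fell in large part. Of the coagulation factors, 30 were tested, of which 5 rose, 17 fell and 8 did not pass. F7 fell from 132 ± 19.98 to 46.2 ± 7.69 CPM and F10 from 544 ± 55.5 to 195 ± 42.5 CPM, both vitamin K-dependent proteases, and Hrg, the histidine-rich glycoprotein, from 1042 ± 149.9 to 279 ± 62.9 CPM. F3, Plat, Plau and Pros1 were among those that rose. F3, the tissue factor, was at 4.92, 5.199, 6.55, 6.46 and 5.403 CPM in the livers and 39.8, 28.5, 26.97, 13.4 and 15.1 CPM in the HBs, and Plat, the tissue plasminogen activator, at 1.24, 0.5505, 0.348, 0.798 and 0.554 CPM in the livers and 70.1, 12.7, 6.96, 40.2 and 6.16 CPM in the HBs. Among the complement genes, 25 were tested, of which 2 rose, 13 fell and 10 did not pass. C8g fell from 391 ± 50.3 to 37.1 ± 19.6 CPM, C8a from 691 ± 311 to 101 ± 41.4 CPM and the lectin pathway proteases Masp1 and Masp2 from 138 ± 15.6 to 72.8 ± 14.5 CPM and from 233 ± 10.5 to 56.5 ± 18.01 CPM. Clu, a chaperone that restrains complement, rose from 1655 ± 362 to 5988 ± 3084 CPM and C2 from 98.997 ± 19.6 to 170.1 ± 49.2 CPM. Of 24 acute phase genes tested, none rose and 9 fell, and with library size alone 2 rose and 7 fell. Among these were Serpina3k, from 11615 ± 2877 to 379 ± 387 CPM, Serpina3m, from 536 ± 44.1 to 23.9 ± 17.9 CPM, Orm1, from 1168 ± 1481 to 74.9 ± 65.4 CPM, and Saa4, from 499.6 ± 350.2 to 27.3 ± 14.4 CPM. DL02 stood apart for Orm1, with 3816 CPM where the other livers had 425 to 556 CPM. Of 21 apolipoprotein and lipoprotein genes, none rose and 17 fell. Lipc, the hepatic lipase, fell from 255 ± 16.8 to 48.8 ± 20.1 CPM, Lcat, which esterifies plasma cholesterol, from 483 ± 35.5 to 126 ± 39.96 CPM and Mttp, which loads lipid onto apolipoprotein B, from 455 ± 46.7 to 183 ± 38.8 CPM.

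The largest falls were of the major urinary proteins (Mups), pheromone carriers that mouse liver secretes under growth hormone, more in males. Mup1 was at 2701, 2696, 28639, 32605 and 27730 CPM in the livers and 0.466, 1.804, 1.19, 0.04305 and 12.4 CPM in the HBs (log2 fold change -12.52, SE 1.81, adjusted p = 3.5e-04). Mup10 was at 16418, 15710, 19627, 19257 and 18280 CPM in the livers and 1.16, 8.602, 4.74, 0 and 151 CPM in the HBs (log2 fold change -9.08, SE 1.91, adjusted p = 0.0029). In the only male HB, DT2270, they stood at 1.80 and 8.60 CPM. The HB with most Mup counts was the female DT3168. Mup12, Mup11, Mup7, Mup19, Mup17, Mup9 and Mup21 were also among the largest falls, with fitted log2 fold changes from -12.296 to -8.53, and Mup8 had no count in HBs (at least 635-fold lower, from 2.87 to 31.3 CPM in livers). These genes are near-identical copies and reads may be split or shared between them, so their sum is the firmer value. The 21 Mup genes in the table together held 2.64% and 4.26% of the counts in the female livers, 6.20% to 6.65% in the male livers and 0.00206% to 0.0496% in the HBs. Gm21320 fell from 445 ± 82.98 to 0.435 ± 0.869 CPM. Hsd3b5, a steroid dehydrogenase of male liver, was at 1.29, 1.22, 115, 127 and 145 CPM in the livers and 0, 0, 0.2296, 0.129 and 0.244 CPM in the HBs. The female livers lay between the male livers and the HBs.

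Other genes whose liver level differs between the sexes were tested beside these. Of the male-biased genes, 18 were tested, of which none rose, 14 fell and 4 did not pass (median -3.98), and with sex as a covariate 11 fell with a median of -2.8. Nudt7, a peroxisomal CoA hydrolase, was at 194, 219.8, 543, 491 and 490.1 CPM in the livers and 11.2, 28.6, 33.4, 30.3 and 35.02 CPM in the HBs (log2 fold change -3.805, SE 0.41, adjusted p = 7.3e-05). Cyp2u1 was at 7.46, 6.61, 36.96, 33.7 and 38.999 CPM in the livers and 0.659, 1.48, 0.956, 0.947 and 1.38 CPM in the HBs (log2 fold change -4.500, SE 0.59, adjusted p = 1.9e-04). In both genes the female livers lay below the male livers and every HB lay below the female livers. Serpina1e fell from 8.41 ± 2.07 to 1.13 ± 0.351 CPM. Of the female-biased genes, 24 were tested, of which 3 rose, 4 fell and 17 did not pass, with sex as a covariate 3 rose and 11 fell, and with library size alone 3 rose and 2 fell. The fatty acid ω-hydroxylases Cyp4a10 and Cyp4a14 fell from 868 ± 411 to 53.4 ± 55.7 CPM and from 940.4 ± 419 to 54.9 ± 58.8 CPM, Fmo2 rose from 18.4 ± 12.6 to 79.5 ± 50.5 CPM and Lpl, the lipoprotein lipase, from 13.7 ± 7.42 to 177 ± 51.4 CPM. The widest ranges over the HBs were of genes of this kind. Cyp2a4 was at 1506, 477, 7.82, 2.18 and 18.6 CPM in the livers and 92.1, 0.0925, 787, 4.26 and 674 CPM in the HBs and Cyp3a41a at 1322, 396, 0.0579, 0.218 and 0.346 CPM in the livers and 147, 1.16, 1251, 70.6 and 178 CPM in the HBs. Female livers held far more of both than male livers, the male DT2270 was the lowest HB, and neither gene passed the test. A1bg and Cyp3a41b had the same lowest HB, with 0.0462 and 0 CPM in DT2270 and 196 and 155 CPM in DT2277, the highest. Reads may be shared between these cytochromes and near-identical copies. Ghr, the growth hormone receptor, fell from 648 ± 183 to 108 ± 36.6 CPM (log2 fold change -2.59, SE 0.30, adjusted p = 1.1e-04).

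Genes of detoxification fell broadly. Of 36 cytochrome P450 genes tested, none rose, 25 fell and 11 did not pass (median -2.26), and their share of all counts went from 2.49% ± 0.42 in livers to 0.706% ± 0.41 in HBs (exact permutation test, two-sided p = 0.00794). Cyp2f2, a periportal cytochrome, was at 1571, 1418, 3032, 3299.9 and 3084 CPM in the livers and 20.5, 7.82, 45.8, 4.91 and 43.1 CPM in the HBs (log2 fold change -6.66, SE 0.74, adjusted p = 8.5e-05). Cyp2b10, the main target of the xenobiotic receptor CAR, was at 101, 39.8, 30.4, 29.8 and 14.2 CPM in the livers and 0.543, 0.139, 0.268, 0.129 and 0.7602 CPM in the HBs (log2 fold change -6.78, SE 0.69, adjusted p = 5.3e-05). Every HB lay far below every liver for both. Cyp2c54 and Cyp2d22 fell from 356 ± 67.3 to 23.4 ± 12.3 CPM and from 601 ± 132 to 165 ± 26.5 CPM. Of the phase II conjugation genes, 37 were tested, of which 3 rose, 28 fell and 6 did not pass. The glycosyltransferases Ugt3a1 and Ugt3a2 fell from 174 ± 38.3 to 6.64 ± 4.96 CPM and from 489 ± 15.4 to 80.3 ± 35.1 CPM, the sulfotransferase Sult1b1 from 26.3 ± 7.08 to 3.33 ± 1.67 CPM and the glutathione transferase Gstm4 from 144 ± 17.2 to 33.9 ± 13.8 CPM. Gstm5 rose from 12.8 ± 1.25 to 24.2 ± 4.34 CPM. Sult1a1 rose, at 497, 277, 273, 272 and 243 CPM in the livers and 239, 1932, 816, 1137 and 1017 CPM in the HBs, with DT2264 alone below the livers and the other HBs above them. Of the bile acid genes, 27 were tested, of which 1 rose, 18 fell and 8 did not pass, and with library size alone 4 rose and 14 fell. Cyp7b1 and Hsd3b7 of the synthesis route fell from 209 ± 129.99 to 10.9 ± 1.77 CPM and from 483 ± 52.4 to 111 ± 33.1 CPM, the bile acid-CoA ligase Slc27a5 from 1016 ± 138 to 153 ± 58.98 CPM and the basolateral exporter Abcc3 from 488 ± 28.3 to 198 ± 36.1 CPM. Abcb1a, a multidrug exporter, rose from 15.9 ± 7.76 to 43.1 ± 13.5 CPM. Of the ABC transporters, 34 were tested, of which 6 rose, 21 fell and 7 did not pass, and with library size alone 8 rose and 11 fell. Abcc5 and Abca5 rose from 5.93 ± 0.698 to 46.3 ± 22.9 CPM and from 22.5 ± 2.45 to 78.8 ± 26.99 CPM, and Abca2 fell from 121 ± 9.74 to 57.05 ± 13.5 CPM.

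Genes of amino acid breakdown fell in most cases. Of the urea cycle and amino acid genes, 51 were tested, of which 1 rose, 41 fell and 9 did not pass (median -1.89), against 23.4% of all genes that fell. Their share of the counts was 3.01% ± 0.418 in livers and 1.46% ± 0.807 in HBs (exact permutation test, two-sided p = 0.016), with 2.78% in DT3168. Hibadh of valine breakdown was at 473, 365, 452, 462 and 436 CPM in the livers and 51.4, 79.5, 97.5, 68.96 and 95.8 CPM in the HBs (log2 fold change -2.48, SE 0.19, adjusted p = 1.6e-05). The groups did not overlap. Bckdhb, of the branched-chain keto acid dehydrogenase, fell from 165 ± 5.46 to 60.9 ± 11.8 CPM and Sardh, which oxidizes sarcosine, from 893 ± 136 to 154 ± 53.2 CPM. Of the periportal hepatocyte genes, 18 were tested, of which 1 rose, 15 fell and 2 did not pass (median -3.06). Gldc, of the glycine cleavage system, was at 315, 259, 305, 301 and 338 CPM in the livers and 11.1, 22.3, 19.4, 7.62 and 59.3 CPM in the HBs (log2 fold change -3.66, SE 0.51, adjusted p = 2.8e-04). The urea cycle lyase Asl fell from 452 ± 136 to 109 ± 24.9 CPM and the lipid droplet enzyme Hsd17b13 from 199.9 ± 13.7 to 50.5 ± 11.3 CPM, while Cdh1, the E-cadherin, rose from 74.5 ± 33.9 to 218 ± 34.1 CPM.

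**Figure D3:**
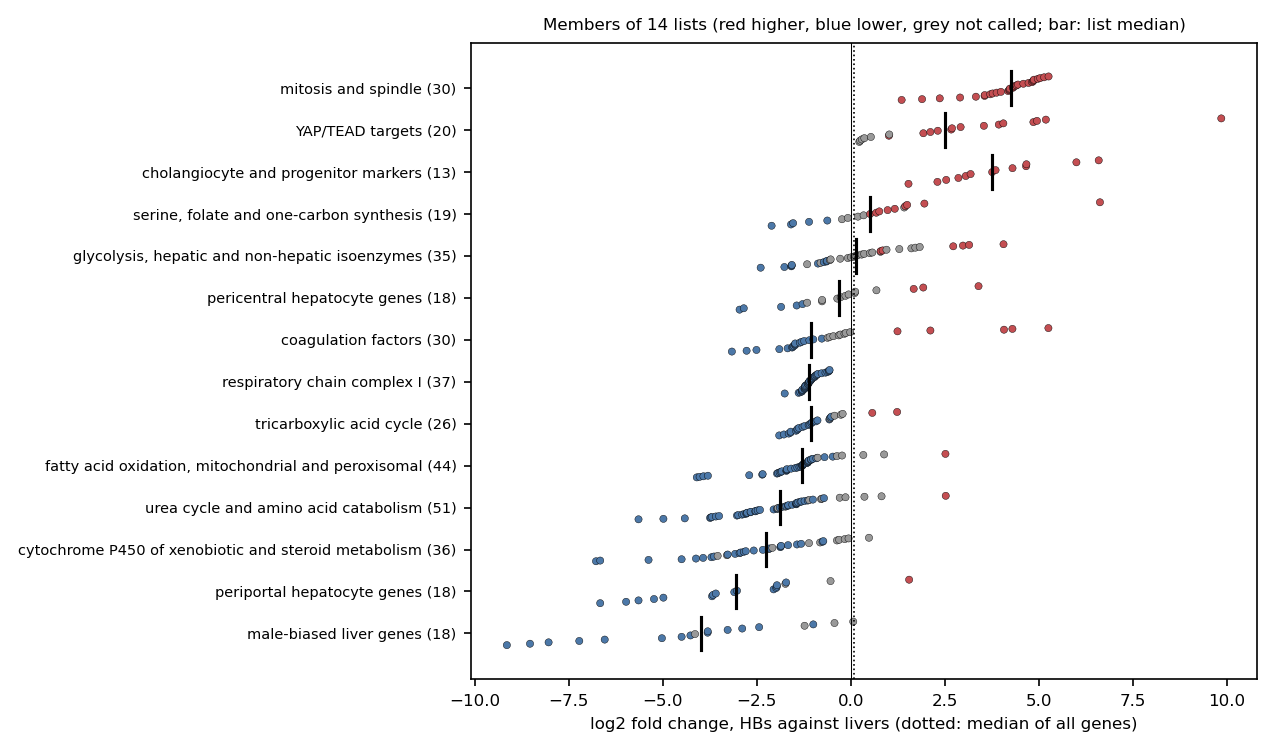
Log2 fold change of each tested member of 14 gene lists, HBs against livers on the DDDA diet (red: rose, blue: fell, grey: not called; black bar: list median; dotted line: median of all genes, 0.08). Complex I genes lie in a narrow band from -1.76 to -0.57, whereas the periportal and male-biased genes spread over many log2 units.

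Genes of complex I of the respiratory chain fell by a small and even amount, and most genes of the tricarboxylic acid cycle and of fatty acid oxidation fell over a wider range. All 37 complex I genes tested fell, from -1.76 to -0.57 on the log2 scale (median -1.10), and for 35 of them every HB was below every liver, which held for 19.1% of all genes tested. With library size alone 25 fell and none rose. Ndufb9, an accessory subunit, was at 182, 141, 221, 265 and 266 CPM in the livers and 57.5, 65.03, 62.2, 66.2 and 66.9 CPM in the HBs (log2 fold change -1.76, SE 0.18, adjusted p = 4.8e-05). Ndufs8, a core subunit with iron-sulfur clusters, was at 77.6, 77.2, 85.4, 98.1 and 98.1 CPM in the livers and 37.2, 42.4, 37.1, 34.3 and 37.9 CPM in the HBs (log2 fold change -1.21, SE 0.10, adjusted p = 2.5e-05). The HBs of both genes lay within a narrow range below the lowest liver. Ndufs7 and Ndufb11 each fell with a log2 fold change of -1.301. Of the tricarboxylic acid cycle genes, 26 were tested, of which 2 rose, 20 fell and 4 did not pass (median -1.07, range -1.90 to 1.23), and with library size alone 4 rose and 14 fell. The succinyl-CoA ligase subunits Suclg1 and Sucla2 fell from 280.2 ± 39.7 to 92.3 ± 14.2 CPM and from 187 ± 22.8 to 59.3 ± 12.2 CPM, the succinate dehydrogenase subunit Sdhb from 244 ± 46.2 to 70.98 ± 11.9 CPM and the malate dehydrogenase Mdh1 from 643 ± 78.8 to 172 ± 38.6 CPM. Idh2, the mitochondrial isocitrate dehydrogenase that makes NADPH, rose from 126 ± 11.9 to 297 ± 91.8 CPM and Idh3a from 39.6 ± 3.28 to 58.8 ± 18.3 CPM. Of 44 fatty acid oxidation genes, 38 fell and 1 rose, with values from -4.10 to 2.52 on the log2 scale. Ehhadh, the peroxisomal enzyme on the route of DDDA, fell from 1238 ± 391 to 88.8 ± 39.1 CPM (log2 fold change -3.801, SE 0.39, adjusted p = 5.6e-05), the enoyl-CoA reductase Pecr from 255 ± 48.9 to 39.3 ± 11.2 CPM, Etfdh from 373 ± 45.4 to 103 ± 24.1 CPM and Acads from 266 ± 30.99 to 88.6 ± 16.6 CPM. Cpt1c, the brain form of carnitine palmitoyltransferase, was at 0.526, 0.367, 0.232, 0.0726 and 0.277 CPM in the livers and 5.004, 0.509, 1.15, 0.474 and 1.602 CPM in the HBs.

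Glycolysis did not move as a block. Of its genes, 35 were tested, of which 6 rose, 9 fell and 20 did not pass, and with library size alone 17 rose and 5 fell, so that the balance of the list depends on the scaling. Among the liver forms of isoenzymes, the pyruvate kinase Pklr fell from 198 ± 52.6 to 66.05 ± 30.4 CPM, while Pfkl, the phosphofructokinase of liver, rose from 69.1 ± 11.3 to 124 ± 57.4 CPM. The ketohexokinase Khk fell from 443 ± 96.7 to 84.2 ± 26.4 CPM. Pkm, the pyruvate kinase of most other tissues, was at 24.9, 35.97, 12.7, 19.3 and 18.8 CPM in the livers and 587, 25.6, 60.4, 26.8 and 38.1 CPM in the HBs (log2 fold change 2.72, SE 0.92, adjusted p = 0.030), and without DT2264 it was not called. Pfkm, the phosphofructokinase of muscle, fell from 24.7 ± 6.42 to 13.5 ± 2.71 CPM. The hexokinase Hk2 was at 1.07 ± 0.747 CPM in livers and 3.57 ± 3.502 CPM in HBs (adjusted p = 0.058), Aldoa at 125 ± 14.4 CPM in livers and 242 ± 171 CPM in HBs (adjusted p = 0.062) and Ldha at 792 ± 161 CPM in livers and 838 ± 79.9 CPM in HBs (adjusted p = 0.72). None of these 3 passed the test, nor did Hk1, Hk3, Pfkp, Aldoc, Eno1, Eno3 and Ldhb (log2 fold changes of 1.29, 0.01, 1.61, 0.29, 0.35, 0.18 and -0.56). DT2264 was the highest HB for Hk1, Hk3, Pfkp, Eno1 and Ldhb, with 35.9 CPM of Hk1 where the other HBs had 2.24 to 10.2 CPM. The kinases that shut pyruvate dehydrogenase divided. Pdk4 was at 6.07, 5.44, 4.98, 5.37 and 5.75 CPM in the livers and 33.2, 24.7, 43.04, 94.2 and 23.5 CPM in the HBs (log2 fold change 2.98, SE 0.38, adjusted p = 1.7e-04), and Pdk3 rose from 0.589 ± 0.5404 to 5.28 ± 2.55 CPM. Pdk1 and Pdk2 fell from 95.7 ± 21.9 to 28.1 ± 11.4 CPM and from 169 ± 35.7 to 56.6 ± 14.4 CPM.

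Of the gluconeogenesis and glycogen genes, 21 were tested, of which 5 rose, 12 fell and 4 did not pass, and with library size alone 7 rose and 9 fell. Fbp1, the fructose bisphosphatase of gluconeogenesis, fell from 792 ± 96.9 to 201 ± 84.4 CPM and the glycogen branching enzyme Gbe1 from 208 ± 37.4 to 68.9 ± 19.5 CPM. Pygb, the brain form of glycogen phosphorylase, was at 6.98, 13.3, 6.08, 8.64 and 8.24 CPM in the livers and 73.5, 94.3, 82.9, 168 and 149 CPM in the HBs (log2 fold change 3.72, SE 0.31, adjusted p = 1.9e-05), and the glycogen primer Gyg rose from 7.08 ± 1.698 to 18.1 ± 2.63 CPM. One-carbon metabolism changed in both directions. Of its genes, 19 were tested, of which 9 rose, 5 fell and 5 did not pass, and with library size alone 12 rose and 3 fell. Phgdh, the first enzyme of serine synthesis, was at 0.382, 1.47, 0.232, 0.0726 and 0.0693 CPM in the livers and 47.7, 29.9, 45.7, 73.5 and 30.3 CPM in the HBs (log2 fold change 6.63, SE 0.65, adjusted p = 4.5e-05). Every HB lay well above the highest liver. Psat1, the next enzyme, rose from 4.18 ± 3.38 to 11.9 ± 4.63 CPM, whereas Shmt2, which makes glycine from serine in mitochondria, fell from 276 ± 38.1 to 91.8 ± 13.5 CPM and the folate dehydrogenase Aldh1l1 from 1626 ± 405 to 377 ± 167 CPM. Of the amino acid transporters, 23 were tested, of which 4 rose, 6 fell and 13 did not pass, and with library size alone 10 rose and 4 fell. The exchangers Slc1a4, Slc1a5 and Slc7a6 rose from 8.69 ± 2.99 to 33.3 ± 8.38 CPM, from 2.12 ± 1.01 to 12.6 ± 4.96 CPM and from 0.421 ± 0.145 to 6.47 ± 4.63 CPM, and the hepatic glutamine transporter Slc38a3 fell from 2257 ± 272 to 539 ± 195 CPM.

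Genes of lipid synthesis were called no more often than all genes (49.7%). Of the lipogenesis and lipid droplet genes, 32 were tested, of which 4 rose, 10 fell and 18 did not pass, and with library size alone 9 rose and 7 fell. Me1, which makes NADPH for fatty acid synthesis, fell from 478 ± 186 to 69.6 ± 29.4 CPM and the fatty acid-binding protein Fabp1 from 3397 ± 654 to 362 ± 235 CPM, while the droplet coat protein Plin4 rose from 1.62 ± 0.467 to 19.8 ± 12.4 CPM and Lpl was at 16.7, 25.4, 8.28, 9.36 and 8.73 CPM in the livers and 261, 134, 138, 185 and 168 CPM in the HBs (log2 fold change 3.69, SE 0.37, adjusted p = 4.7e-05). Of 27 cholesterol genes, 1 rose and 5 fell, and with library size alone 2 rose and 2 fell. The sensors Insig2 and Scap fell from 209.7 ± 46.7 to 76.9 ± 10.3 CPM and from 199.6 ± 36.8 to 77.6 ± 13.8 CPM. Srebf1, the regulator of lipogenesis, fell from 647 ± 222 to 268 ± 94.7 CPM, and Srebf2, that of cholesterol synthesis, rose from 104 ± 16.5 to 190.2 ± 63.4 CPM. Of 21 genes of iron handling, 2 rose and 6 fell, and with library size alone 4 rose and 5 fell. The iron sensor Tfr2 fell from 583 ± 74.9 to 188 ± 33.6 CPM, the iron exporter Slc40a1 from 389.9 ± 25.7 to 136 ± 48.5 CPM, the ferritin light chain Ftl1 from 7665 ± 1365 to 2828 ± 372 CPM and the hepcidin repressor Tmprss6 from 935 ± 115 to 361 ± 103 CPM. Tfrc, the receptor for iron uptake, rose from 16.3 ± 3.71 to 41.2 ± 13.6 CPM and Bmp6, an inducer of hepcidin, from 8.18 ± 2.92 to 37.2 ± 19.8 CPM.

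Growth factor genes changed in both directions, beside 26.3% of all genes that rose and 23.4% that fell. Of the growth hormone and IGF genes, 21 were tested, of which 9 rose, 6 fell and 6 did not pass, and with library size alone 12 rose and 2 fell. Igfbp1, an IGF-binding protein, was at 42.8, 31.1, 8.63, 12.8 and 8.94 CPM in the livers and 486, 694, 202, 376 and 268 CPM in the HBs (log2 fold change 4.28, SE 0.57, adjusted p = 2.2e-04). Igf2r, the receptor that removes Igf2, rose from 76.2 ± 6.07 to 169.9 ± 46.1 CPM, and Igfals, which keeps IGFs in plasma, fell from 145 ± 29.96 to 21.6 ± 18.6 CPM. Of the receptor tyrosine kinases and their ligands, 26 were tested, of which 10 rose, 5 fell and 11 did not pass, and with library size alone 13 rose and 1 fell. Erbb2 was at 1.34, 1.28, 0.811, 1.23 and 1.801 CPM in the livers and 29.4, 10.6, 21.8, 19.5 and 14.9 CPM in the HBs (log2 fold change 3.89, SE 0.32, adjusted p = 1.9e-05), without overlap. The ligands Pdgfa, Pdgfb and Pdgfc rose from 8.97 ± 2.06 to 29.97 ± 5.34 CPM, from 1.26 ± 0.514 to 43.9 ± 36.05 CPM and from 4.84 ± 1.45 to 35.2 ± 8.68 CPM. Met, the receptor of hepatocyte growth factor, fell from 129.7 ± 17.8 to 68.2 ± 18.1 CPM and Fgf1 from 99.5 ± 15.6 to 22.1 ± 16.7 CPM.

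Of 23 p53 targets tested, 12 rose and 1 fell. Phlda3, an inhibitor of Akt, was at 0.574, 2.63, 0.811, 0 and 1.25 CPM in the livers and 43.1, 28.8, 14.8, 58.4 and 27.9 CPM in the HBs (log2 fold change 5.03, SE 0.71, adjusted p = 3.0e-04). The cell death effector Bax rose from 21.1 ± 3.94 to 48.4 ± 10.4 CPM and Trp53 itself from 24.1 ± 4.18 to 56.8 ± 14.3 CPM, while the desmosomal Perp fell from 119.9 ± 5.94 to 69.8 ± 7.95 CPM. Of the cell death genes, 34 were tested, of which 16 rose, 5 fell and 13 did not pass, and with library size alone 24 rose and 1 fell. Casp12 rose from 0.718 ± 0.464 to 43.5 ± 27.6 CPM, Casp2 from 6.495 ± 1.08 to 15.7 ± 1.84 CPM, the death receptor Tnfrsf10b from 1.46 ± 0.847 to 15.03 ± 5.67 CPM and the survival factor Mcl1 from 138 ± 8.63 to 255 ± 28.6 CPM. Cycs, the cytochrome c, and Bid fell from 180.03 ± 33.5 to 74.97 ± 16.6 CPM and from 25.3 ± 2.998 to 15.1 ± 1.91 CPM. Stress programs were less uniform. Genes of the integrated stress response and unfolded protein response were called less often than all genes (49.7%). Of 29 tested, 4 rose, 3 fell and 22 did not pass, and with library size alone 20 rose and 2 fell. Stc2, a secreted glycoprotein, rose from 0.0456 ± 0.0505 to 8.05 ± 3.74 CPM, and the endoplasmic reticulum genes Edem1 and Herpud1 fell from 248 ± 10.1 to 119 ± 32.3 CPM and from 509.9 ± 208 to 170 ± 24.9 CPM. Among the NRF2 and glutathione genes, 23 were tested, of which 3 rose, 9 fell and 11 did not pass, and with library size alone 6 rose and 5 fell. Nfe2l2, which encodes NRF2, rose from 77.2 ± 9.95 to 203 ± 47.3 CPM and Gss, the glutathione synthetase, from 113 ± 17.4 to 195 ± 71.8 CPM, whereas Gclc, the rate-limiting enzyme of glutathione synthesis, fell from 712 ± 119.96 to 170.2 ± 26.4 CPM and the dismutases Sod1 and Sod2 from 837 ± 168 to 288 ± 55.97 CPM and from 259 ± 40.4 to 82.2 ± 15.5 CPM. Of 24 hypoxia genes, 3 rose and 4 fell (26.3% and 23.4% of all genes), and with library size alone 15 rose and 3 fell. Egln3 rose from 20.8 ± 2.41 to 59.8 ± 28.7 CPM and P4ha2 from 11.8 ± 2.39 to 23.7 ± 3.92 CPM, and Bnip3 fell from 268 ± 28.2 to 115 ± 29.7 CPM. Of 19 clock genes, 2 rose and 8 fell, and with library size alone 4 rose and 4 fell. Npas2 and Arntl rose from 0.319 ± 0.199 to 3.17 ± 1.38 CPM and from 3.59 ± 1.52 to 11.3 ± 6.404 CPM, and Hlf, Cry2 and Nr1d1 fell from 78.4 ± 20.2 to 21.4 ± 7.91 CPM, from 58.7 ± 12.03 to 30.8 ± 4.04 CPM and from 141 ± 36.1 to 49.6 ± 18.8 CPM. The time of day of collection was not analysed here.

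Of 24 genes of antigen presentation, 3 rose and 2 fell (26.3% and 23.4% of all genes), and with library size alone 8 rose and 1 fell. The class I genes H2-Q4 and H2-Q6 rose from 41.8 ± 21.4 to 112 ± 32.7 CPM and from 2.58 ± 1.74 to 10.2 ± 4.76 CPM. H2-Q10, which liver secretes, and B2m, the light chain of class I molecules, fell from 1387 ± 195 to 478 ± 210.1 CPM and from 1676 ± 209 to 1018 ± 168 CPM. The H2-Q genes are close paralogs and reads may be shared between them. Of 31 interferon-stimulated genes, 6 rose and 3 fell, and with library size alone 19 rose and none fell. Ifit2 was at 5.02, 3.73, 1.74, 0.798 and 2.08 CPM in the livers and 19.1, 83.4, 36.2, 35.2 and 34.6 CPM in the HBs (log2 fold change 3.94, SE 0.53, adjusted p = 2.2e-04), with every HB above every liver. Oas1a, Isg20 and Ifi27 rose by 2.55, 2.03 and 1.22 on the log2 scale, while Bst2 and Iigp1 stood at -0.77 and -1.03. Of 28 chemokine and cytokine genes, 9 rose and 3 fell, and with library size alone 14 rose and 1 fell. Lif, a cytokine of the interleukin 6 family, was at 0.0956, 0.122, 0, 0 and 0.0693 CPM in the livers and 8.9998, 5.97, 4.32, 6.97 and 4.32 CPM in the HBs (log2 fold change 6.55, SE 0.59, adjusted p = 2.9e-05). Tgfb2 rose from 0.572 ± 0.132 to 21.01 ± 15.2 CPM and the membrane-bound chemokine Cx3cl1 from 0.888 ± 0.552 to 25.1 ± 21.3 CPM. Cxcl12, the ligand of Cxcr4, fell from 463 ± 47.6 to 183 ± 50.99 CPM. Ccl9 fell from 75.8 ± 5.93 to 53.6 ± 15.9 CPM, and with library size alone its sign turned, at 0.16 on the log2 scale.

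Markers of other liver cells differed among the HBs, and single genes among them moved in all HBs. Stellate cell and fibroblast markers summed to 3593 CPM in DT2264, 75.5 to 744 CPM in the other HBs and 386 to 576 CPM in livers. Of 15 tested, 3 rose and 1 fell, and without DT2264 and DT2277 1 rose and 9 fell, while with library size alone 7 rose and none fell. Col1a1 was at 14.9, 26.7, 6.66, 8.35 and 6.58 CPM in the livers and 890.3, 18.04, 71.2, 16.4 and 33.5 CPM in the HBs (log2 fold change 4.02, SE 1.21, adjusted p = 0.018). Mgp, a calcification inhibitor of stroma, was at 3.202, 2.202, 1.74, 3.48 and 2.701 CPM in the livers and 369.9, 8.65, 23.2, 4.26 and 12.8 CPM in the HBs. DT2264 was by far the highest HB for both. Reln, a secreted protein of stellate cells, fell from 50.8 ± 18.9 to 12.7 ± 9.53 CPM. The log2 fold change of Col1a2 went from 3.100 to -0.12 without DT2264 and DT2277. Acta2, the smooth muscle actin and the only one of 6 smooth muscle markers that rose, was at 114, 2.59, 2.83, 2.41 and 4.81 CPM in HBs, with livers from 1.04 to 2.54 CPM. Endothelial markers summed to 900 CPM in DT2264, 85.3 to 279 CPM in the other HBs and 433 to 574 CPM in livers. Of 17 tested, none rose and 6 fell, and without DT2264 and DT2277 none rose and 12 fell, while with library size alone 2 rose and 3 fell. The 4 named here mark sinusoidal endothelium. Clec4g was at 76.1, 39.1, 59.95, 63.01 and 75.1 CPM in the livers and 5.16, 0.0925, 15.3, 2.28 and 11.4 CPM in the HBs (log2 fold change -3.19, SE 0.79, adjusted p = 0.0069), below the livers in all 5 HBs, and Gpr182, Oit3 and Stab2 also fell (-2.36, -2.63 and -1.97 on the log2 scale). Macrophage markers summed to 367 to 1520 CPM among livers and 552 to 1964 CPM among HBs, with DT2264 the highest. These sums weigh abundant members most, and Mpeg1 alone was at 577 CPM in DT2270 and 360 CPM in DT3167. As a mean of log2 levels over the macrophage markers, DT2270 and DT3167 were at 2.81 and 3.03, below every liver (4.09 to 6.17). DT2264, DT2277 and DT3168, at 5.945, 5.03 and 4.67, lay within the range of the livers. Of 14 tested, 2 rose and 1 fell, and with library size alone 5 rose and none fell. Csf1r, the receptor for macrophage growth, and Mpeg1 rose from 56.98 ± 36.9 to 139 ± 40.8 CPM and from 132 ± 127 to 421 ± 136 CPM, and the scavenger receptor Cd163 fell from 7.699 ± 3.22 to 2.002 ± 1.67 CPM. None of 5 lymphocyte markers tested and none of 5 neutrophil markers tested passed. Neutrophil markers summed to 249 CPM in both DT2264 and DT2277 and, in the livers, to at most 148 CPM, in DL02. Of 6 erythroid markers, Slc4a1 rose and Klf1 fell (3.26 and -1.88 on the log2 scale). Their sum spanned 454 to 1688 CPM over the livers and 174 to 12374 CPM over the HBs. Of 2 acinar markers Cela1 fell from 21.8 ± 11.1 to 3.51 ± 1.31 CPM. The part of other cells in the collagen, laminin, Pkm and cholangiocyte results was not tested beyond these values.

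**Figure D4:**
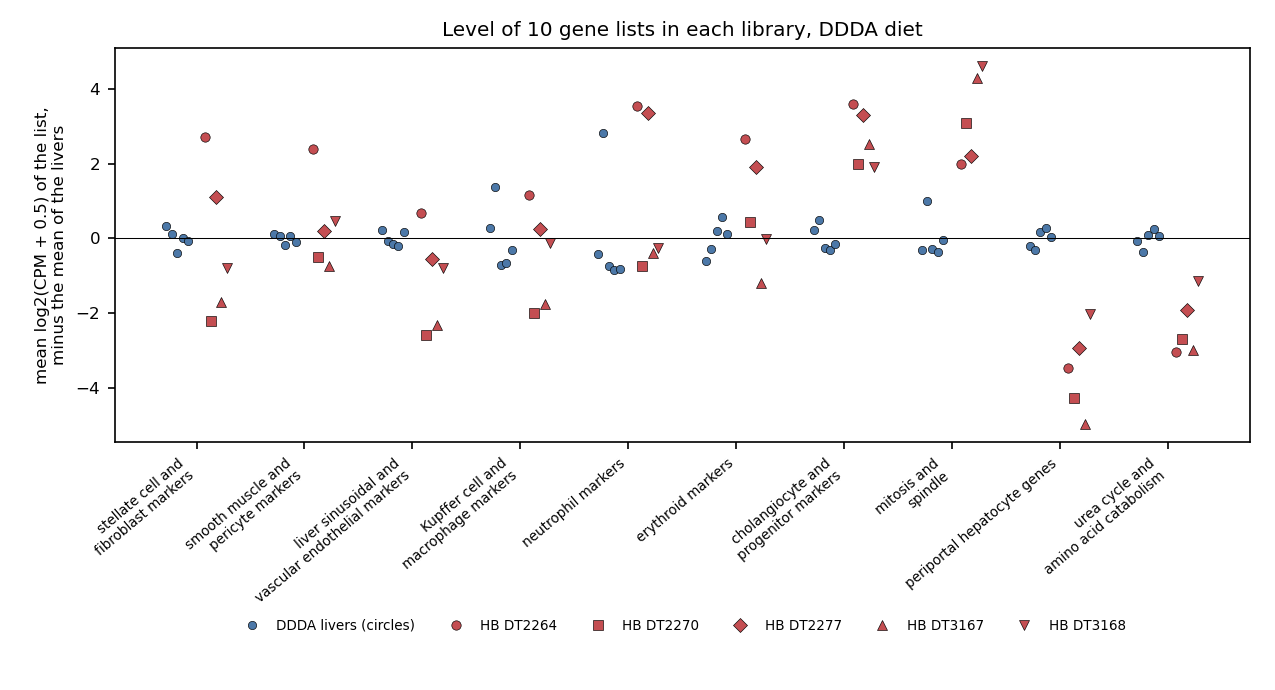
Mean log2(CPM + 0.5) over the members of 10 gene lists in each library, minus the mean of the 5 livers (blue circles: livers; red symbols: HBs). DT2264 is the highest HB for stellate cell, smooth muscle, endothelial and macrophage markers, DT3167 and DT3168 for mitosis genes, and DT3168 for urea cycle and periportal genes.

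The HBs were more variable than the livers. The median SD of log2(CPM + 0.5) was 0.34 over the HBs and 0.23 over the livers. Among the 100 genes with the widest range over HBs, DT2264 was the highest in 48 and DT2270 the lowest in 48. The HBs also differed by chromosome. Over 10410 genes at 5 CPM or more, each HB was set against the mean of the other 4. In DT3168 the 356 genes of chromosome 14 had a median difference of -0.55 on the log2 scale, with -0.52, -0.54 and -0.58 in the first, second and last of 3 equal parts of its genes by position, and DT3168 was the lowest HB for 230 of them (64.6%, against 15.8% of all genes). In DT2270 the 400 genes of chromosome 19 had a median of 0.39, and DT2270 was the highest HB for 232 of them (58.0%, where over all genes it was the highest for 2087 of 10410). On chromosome 5 the median of DT2270 was -0.26 over 676 genes, and on chromosome 2 that of DT3167 was 0.26 over 812 genes. Every other chromosome stayed between -0.24 and 0.24 in each HB. These are descriptions of RNA levels over genes that share a chromosome and a library, and DNA copy number was not measured in the data used here.

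**Figure D5:**
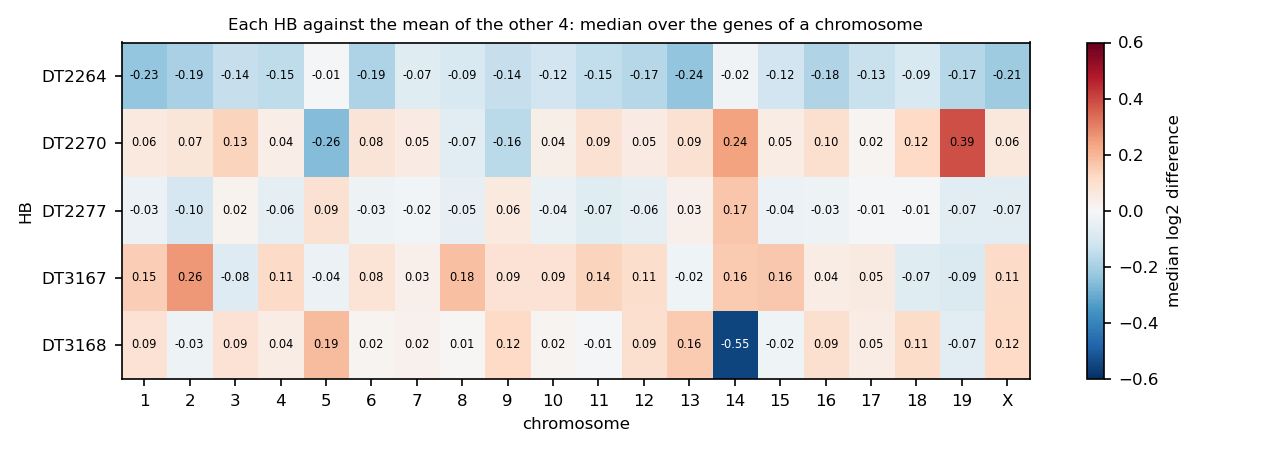
Median log2 difference between each HB (rows) and the mean of the other 4 HBs over the genes of each chromosome (columns; 10410 genes at 5 CPM or more). Chromosome 14 in DT3168 (-0.55) is the lowest value and chromosome 19 in DT2270 (0.39) the highest.

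On the standard diet the same contrast, between 5 HBs and 5 livers of other mice, gave 3896 genes higher (28.2%) and 3703 lower (26.8%) of 13830 tested. Of the genes that rose on DDDA, 80.2% also rose on the standard diet, which is 72.7% of those that rose there, and of the genes that fell 84.3% also fell, which is 71.6%. Fgfbp1 went from 0.119 ± 0.0804 to 139 ± 44.2 CPM, Ankrd1 from 0.329 ± 0.104 to 123 ± 46.4 CPM and Phgdh from 0.779 ± 0.174 to 56.4 ± 14.2 CPM on the standard diet. All 30 mitosis genes rose on both diets, and so did all 13 cholangiocyte markers. Of the complex I genes, none rose and 34 fell of 37 tested on the standard diet, and of the urea cycle and amino acid genes, 2 rose and 48 fell of 51 tested. For the interferon-stimulated genes the standard diet gave 19 rose and 2 fell of 31 tested, beside 6 and 3 of 31 on DDDA, and for the acute phase genes 8 rose and 5 fell of 24 tested, beside 0 and 9 of 24. None of these members differed between the diets by the test below. Yap1 itself went from 102 ± 11.2 to 3269 ± 1481 CPM on the standard diet, a log2 fold change of 5.01 beside 3.602 on DDDA, and Ctnnb1 had 1.03 beside 1.74. None of 14502 genes passed the test of a difference between the diets in the HB against liver change (edgeR), 877 had an unadjusted p under 0.05 (6.05%), and DESeq2 called 11. Diet and sequencing run cannot be told apart. Column names give a trimming step for the reads of the standard diet and none for those of DDDA. The fitted spread between libraries (common coefficient of variation) was 0.41 on DDDA and 0.30 on the standard diet, so that numbers of calls need not compare.

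Genes with the smallest p in that test, and those with opposite signs, are given as values. DESeq2 called Sgk1, Bhlhe40, Rab3d, Adora1, Psat1 and Bmp6, beside Mup1 and 4 genes outside the rule for named genes that are named after their values were seen, G0s2, Nebl, Rtn4r and Tubb2b. The adjusted p-values given here are those of edgeR, which called none. Sgk1, a kinase induced by glucocorticoids and insulin, was at 32.4, 29.8, 28.6, 31.3 and 20.2 CPM in the livers and 63.2, 52.4, 28.6, 61.9 and 189 CPM in the HBs on DDDA, where it rose (log2 fold change 1.47, SE 0.43, adjusted p = 0.016), and fell on the standard diet with -0.99 (difference 2.44, SE 0.51, adjusted p = 0.35). The clock and hypoxia repressor Bhlhe40 had log2 fold changes of 0.30 on DDDA, not called, and -1.500 on the standard diet (difference 1.78, SE 0.31, adjusted p = 0.13). For the secretory GTPase Rab3d they were 0.96 and 2.05 (difference -1.12, SE 0.20, adjusted p = 0.13), for the adenosine receptor Adora1 -0.47, not called, and 1.28 (difference -1.78, SE 0.35, adjusted p = 0.29), for Psat1 1.497 and 4.51 (difference -3.03, SE 0.62, adjusted p = 0.35) and for Bmp6, opposite only by a value near 0, 2.19 and -0.02 (difference 2.19, SE 0.51, adjusted p = 0.56). 2900011O08Rik, a gene of no given function, had 9.01 and 4.71 (difference 4.25, SE 0.90, adjusted p = 0.35) with livers at or near 0 counts on DDDA, where the fitted value depends on the prior count. By edgeR no member of the 55 lists differed between the diets, while DESeq2 called 3 members, Bhlhe40, Bmp6 and Psat1.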

How the data were processed

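Livers and HBs were profiled by RNA-Seq of oligo(dT)-selected RNA in a directional library type, 1 library per mouse. The authors deposited whole-number read counts per gene with no normalization, with GRCm38.p6 as the build in the submitters' processing notes. The aligner, its settings and the use of strand in counting were looked for and not found, so that overlapping and antisense genes are uncertain. The authors' RPKM values, which divide counts by exon length and depth per the file headers, carry no result here. The authors' own fold changes and p-values were not used. The table held 36333 genes, and 0 columns of samples outside the series. Libraries held 18323912 to 29783324 counts.

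Counts of the 10 DDDA libraries were fitted with edgeR 4.0.16 in R 4.3.3 (filterByExpr, TMM, quasi-likelihood F-test, Benjamini-Hochberg adjustment over 13415 genes, threshold 0.05). On simulated counts of 13305 genes for this comparison, 35.4% of 99 genes changed 2-fold and 74.2% of 97 genes changed 4-fold were recovered. The simulation changed far fewer genes than the 6673 called in the data, so its recovery need not hold there. Shares of counts were tested with an exact permutation test (252 splits). Logs used a pseudocount of 0.5 CPM, and folds against groups without counts a floor of 3 counts over the group. The diets were compared by an interaction term over 20 libraries. Genes were named by rule: the 12 largest rises and falls at 5 CPM or more without overlap, up to 4 members per list by p and 2 in the rarer direction, Ctnnb1 and Yap1, the 6 widest ranges over HBs (Xist is not given by its values), the smallest p of the diet test and the glycolysis isoenzymes. Some genes that meet the rule are not reported here. Other named genes were chosen after their values were seen. The members and gene lists were chosen with earlier results of these data known. Promoters came from RefSeq tables of the same build. The 5 HBs of the longer DDDA diet were not analysed here. Alternatives were DESeq2 1.42.0, RLE scaling, library size alone, no filter, sex or flow cell as a covariate, all 20 libraries in 1 fit, females only, one flow cell only, and each library left out.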

Additional observations from a re-analysis of the deposited data

Results flagged for a closer look

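In 55 of 678 groups of 5 libraries examined, the highest or lowest library stood apart, its gap to the next being over 0.71 of the range of the group. Chance alone gives about 5% where groups are independent and values normally distributed. The groups here reuse the same libraries, and some genes were named for a large change or range or had few counts. The 5% is therefore no baseline for the 55 groups found. The fraction of the range is given in parentheses, and its cause was not tested.

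Among the livers DL02, a female, stood apart most often. It was the highest for the share of counts of mitosis and spindle (0.795), the list level of neutrophil markers (0.888), the list level of mitosis and spindle (0.765), the list level of coagulation factors (0.826), the list level of acute phase proteins (0.74), the list level of MHC class I and II presentation (0.75), Prc1 (0.754), Top2a (0.876), Lig1 (0.846), C2 (0.73), Orm1 (0.878) and 2900011O08Rik (1.0). It was the lowest for the share of counts of cytochrome P450 of xenobiotic and steroid metabolism (0.807), the list level of phase II conjugation (0.814), Mlxipl (0.842), Sardh (0.729), Sucla2 (0.787) and Reln (0.715). DL01, the other female, was the highest for Igf2bp1 (1.0) and Sult1a1 (0.82). DL01 was the lowest for Fbp1 (0.764), C8a (0.846) and Col18a1 (0.767). DL03 was the highest for Abca5 (0.714). DL04 was the highest for Fam83b (1.0) and Serpina3m (0.718). DL04 was the lowest for Hes1 (0.787). DL05 was the highest for the list level of pancreatic acinar markers (0.903). DL05 was the lowest for Cldn7 (0.83) and Sgk1 (0.733). For Fam83b, Igf2bp1 and 2900011O08Rik the library named was the only liver with any count.

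Among the HBs it was DT2264, whose stellate cell markers summed to 3593 CPM. This HB was the highest for the share of counts of cholangiocyte and progenitor markers (0.717), the list level of chemokines, cytokines and receptors (0.844), Cdh17 (0.714), Pkm (0.728), Col12a1 (0.791) and Acta2 (0.836). This HB was the lowest for the list level of tricarboxylic acid cycle (0.832), Mlxipl (0.73), Srebf1 (0.71), Mttp (0.863), Mdh1 (0.714), Masp2 (0.818), Tmprss6 (0.835), Creb3l3 (0.781), Nudt7 (0.821) and H2-Q10 (0.782). DT3168 was the highest for the total counts (0.75), Mup12 (1.0), Mup7 (0.715), Mup17 (0.816), Gm21320 (0.798) and Mxd4 (0.784). DT3168 was the lowest for Lama5 (0.83). DT2277 was the lowest for the list level of p53 targets (0.839). DT3167 was the highest for Mup19 (1.0).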

How the results depend on the processing

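With library size alone 7966 genes rose and 1152 fell, 934 of the 6673 calls changed sign and the median of all genes moved by 0.65 on the log2 scale. Between females alone, with 2 livers, 879 rose and 866 fell and 102 named calls were lost. With a change of at least 2-fold required as well, 2104 rose and 1425 fell. Leaving out 1 library gave 3145 to 3609 rises and 2798 to 3164 falls. The other settings gave 2860 to 4265 rises and 2645 to 3679 falls, among them 3403 and 3141 without DT2264 and DT2277, a setting chosen after seeing the data. For the difference between the diets DESeq2 called 11 genes where edgeR called 0, and leaving out 1 library gave 0 to 1 (Myh14 without DT2264, and Rab3d or Bhlhe40 without 1 HB of the standard diet).

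Directions turned for few named genes. Glul (-0.14) was at 0.50 with library size alone, at 0.027 between females, and from -0.67 to 0.11 when 1 library was left out. Ldha (0.08) was at -0.077 between females. With library size alone Ccl9 (-0.50) was at 0.16, Adora1 (-0.47) at 0.19 and Ldhb (-0.56) at 0.158. Without DT2264 and DT2277 the value of Col1a2 (3.10) was -0.12, of Hk1 (1.29) -0.41, of Pfkp (1.61) -0.49, of Cyp3a41b (1.28) -2.11 and of Hk3 (0.01) -1.07. Hk3 was also at -0.92 with sex as a covariate, -0.020 over all 20 libraries, -0.37 between females and -0.147 without the smaller flow cell. Cyp2a4 (-0.37) was at 0.14 with library size alone, and Cyp3a41a (-0.06) at 0.45 with library size alone and 0.51 with flow cell as a covariate. When 1 library was left out, Cyp2a4 ran from -1.06 to 1.31, Cyp3a41a from -1.79 to 1.77, Cyp3a41b from -1.82 to 4.41, Hk3 from -0.76 to 0.56 and Pfkp from -0.092 to 1.87. Of these genes only Ccl9 and Col1a2 were called. The calls of Idh3a, Ccl9, Cd163, Pparg, Mpeg1, Pkm, Pfkl, Psat1, Col1a2, Col18a1, Acta2 and Reln were lost in at least 1 of the fits that left out a library, those of Alb, C2, Gss, Col27a1, Csf1r, Cpt1c and Arntl without the smaller flow cell, and those of Fmo2, Bst2, Iigp1, Col1a1 and Slc4a1 without DT2264 and DT2277. The cause was not tested. No paired analysis was possible because the numbers in the labels name mice and are not shared between the groups. In the simulated counts many 2-fold changes were missed. Only 99 and 97 tested genes were changed there, where 6673 were called in the data, so the share missed in the real comparison was not measured.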
